A study of Rattus norvegicus with 6 samples.

Results

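The genes described here encode the TGF-beta ligands (Tgfb1, Tgfb2, Tgfb3), the proteins named for binding latent TGF-beta (Ltbp1, Ltbp2), the integrin subunits that activate it (Itgav, Itgb6, Itgb8) and the signalling receptors (Tgfbr1, Tgfbr2). They were taken by symbol, and all 10 were found among the 22835 genes of the count table. Their RNA was measured in whole lung of female rats of 12 weeks on an SD background, with 3 libraries per genotype. The ND1Sftpc-cre rats, called ND1_cKO here after their genotype label, carried an Sftpc-Cre driver and an LSL-DdCBE-ND1 allele. In them Cre from the promoter of the surfactant protein C gene, a gene of alveolar type 2 cells, released an editor of the mitochondrial gene ND1. The controls were ND1LSL littermates per the series description, which therefore carried the silent editor allele, while the genotype label calls them WT. Cre and the active editor differed between the genotypes along with the ND1 edit, so their effects cannot be told apart. The study presented the model as one of pulmonary fibrosis that starts from mitochondrial dysfunction in the alveolar epithelium, and the comparison asks how the genes that make, release and receive TGF-beta differed there.

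TGF-beta is secreted in a latent form, in which the dimeric growth factor stays enclosed by its own propeptide, and latent TGF-beta binding proteins tether that complex to the matrix. Integrins that pair the alpha subunit of Itgav with the beta subunit of Itgb6 or Itgb8 grip the propeptide and free the growth factor. In human and mouse the propeptides of Tgfb1 and Tgfb3 carry the arginine-glycine-aspartate motif that these integrins recognise, and that of Tgfb2 lacks it. The freed ligand binds the product of Tgfbr2, which recruits and phosphorylates that of Tgfbr1, and the complex then activates SMAD2 and SMAD3. In mice the integrin containing the Itgb6 product is a known activator of TGF-beta in injured lung epithelium.

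Of the 10 genes, Tgfb2 and Itgb8 passed the test between genotypes, and their promoter sequences are printed here for that reason. The sequences were taken from RefSeq on build GRCr8 and span 250 bases before to 50 bases after the annotated start. All 10 genes matched an entry. Capitals mark matches on either strand to the E-box CACGTG, the GC box GGGCGG and the CCAAT box CCAAT.
Tgfb2 promoter, chr13:100792636-100792935, minus strand: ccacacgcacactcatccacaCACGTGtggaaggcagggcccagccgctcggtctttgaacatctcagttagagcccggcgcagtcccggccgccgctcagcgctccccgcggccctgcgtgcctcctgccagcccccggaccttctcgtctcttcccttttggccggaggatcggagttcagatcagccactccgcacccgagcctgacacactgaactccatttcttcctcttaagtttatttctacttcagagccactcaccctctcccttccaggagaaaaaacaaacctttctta
Itgb8 promoter, chr6:146351196-146351495, minus strand: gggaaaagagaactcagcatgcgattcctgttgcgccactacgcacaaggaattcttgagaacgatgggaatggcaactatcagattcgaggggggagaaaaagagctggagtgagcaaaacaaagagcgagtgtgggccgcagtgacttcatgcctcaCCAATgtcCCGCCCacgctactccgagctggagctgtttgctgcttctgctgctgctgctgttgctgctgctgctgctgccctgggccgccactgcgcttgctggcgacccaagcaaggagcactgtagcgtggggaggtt
The Tgfb2 window held 1 E-box, first base at position -229 from the start, a motif present in 6.42% of all 33469 promoter windows of this length. The Itgb8 window held a CCAAT box at -91 and a GC box at -83, present in 37.5% and 33.1% of windows. Neither window held the cyclic AMP response element TGACGTCA (1.83% of windows), the AP-1 site TGACTCA (4.63%), the SMAD palindrome GTCTAGAC (0.197%) or the TATA box TATAAA (14.2%). The E-box was added to the search after the sequences had been read. None of these 7 motifs occurred in both windows, and no 2 matches overlapped. These are matches of letters only.

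Between 28669995 and 38303274 counts per library were assigned to genes, so the 10 genes were deeply covered. Their lowest count in any library was 530, for Itgb8, at which counting error alone is 4.34% of the value. Levels are given as CPM, counts relative to library sizes scaled by TMM, which sets the libraries to a common scale. ND1 transcripts were at 2432 to 3083 CPM in controls and 3427 to 3737 in ND1_cKO, and Sftpc at 12903 to 15473 and 5301 to 10376 CPM. The edgeR adjusted p was 0.125 for ND1 and 0.133 for Sftpc. ND1_cKO replicate 3 stood apart from the other ND1_cKO libraries on the first principal component (65.2 against 25.3 and 13.7, with controls between -38.3 and -31.1).

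The ligand gene Tgfb2 and the integrin gene Itgb8 rose in ND1_cKO lung, by 2.03-fold and 1.92-fold, and the other 8 genes did not pass the test. By edgeR's quasi-likelihood test with Benjamini-Hochberg adjustment over the 16548 genes tested, 2 of the 10 were called higher at adjusted p below 0.05 and 0 lower. Over all genes 1.14% were called higher and 2.42% in either direction. With the study's added threshold of an absolute log2 fold change above 1, Tgfb2 was the 1 gene left, against 0.985% of all genes. Its log2 fold change of 1.02 lay near that cutoff. Under library weights (0.97) or total counts only (0.98), 0 of the 10 genes met both thresholds. Among fits with 1 library left out, only that without control replicate 3 kept Tgfb2 past both. Of the 10 genes 9 had a positive log2 fold change, with a median of 0.69 beside 0.01 over all genes tested. Without ND1_cKO replicate 3 the median of the 10 was 0.39. In 5 of the 10 genes every ND1_cKO library lay above every control library, and in 0 the reverse held. Over all genes 14.1% were separated upward and 28.2% in either direction. An unadjusted p below 0.05 was reached by 6 of the 10 and by 21.4% of all genes. As whole lung was sequenced, a change in the number of cells of a type and a change in RNA per cell cannot be told apart.

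**Figure D1:**
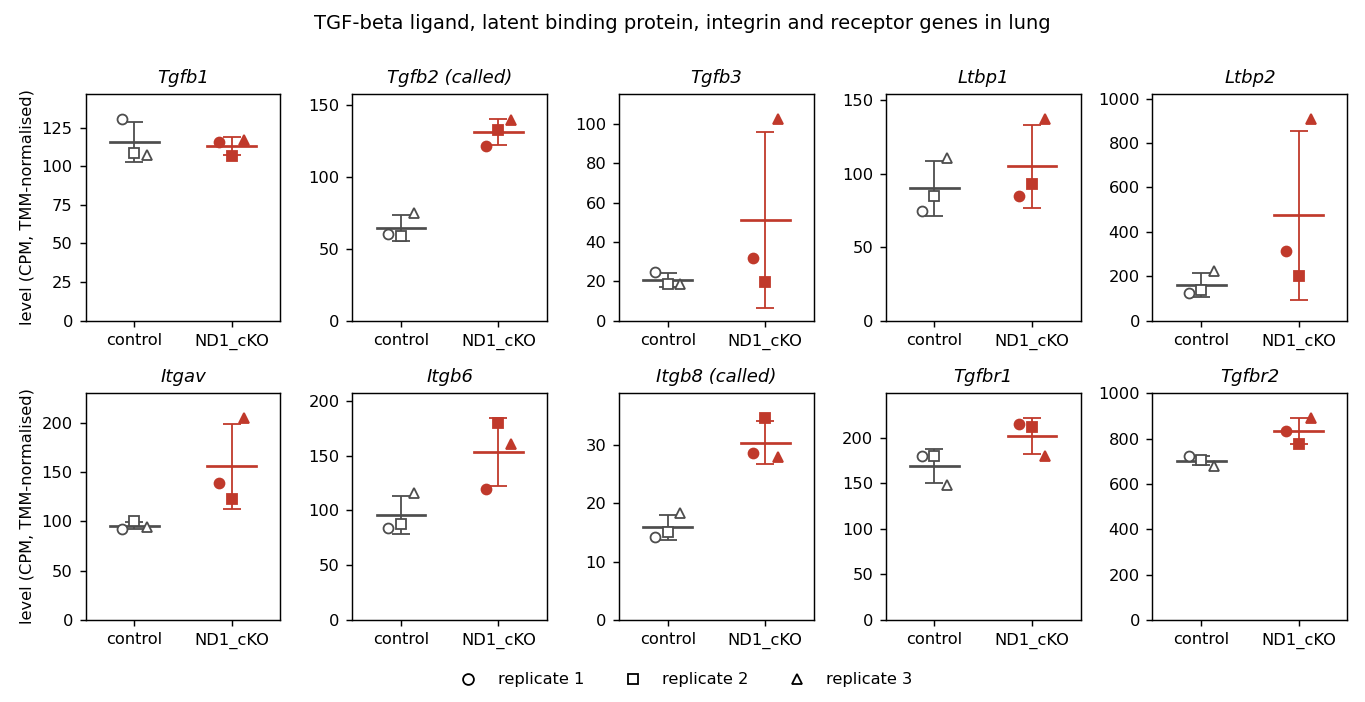
Level of each of the 10 genes (CPM, linear axis from 0) in the 3 control libraries (open symbols) and the 3 ND1_cKO libraries (filled symbols), with the mean as a line and the SD as an error bar. Tgfb2 and Itgb8 show clear gaps between the genotypes, while Tgfb3 and Ltbp2 are drawn up in ND1_cKO by replicate 3.

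Among the ligand genes Tgfb2 rose, while Tgfb1 overlapped between genotypes and did not pass. Tgfb2, the isoform whose binding to the type 2 receptor depends most on the co-receptor betaglycan, stood at 60.6, 58.6 and 75.1 CPM in control replicates 1, 2 and 3. In ND1_cKO replicates 1, 2 and 3 it stood at 121, 133 and 139 CPM. The lowest ND1_cKO library was 1.62 times the highest control, so the genotypes were well separated. Its mean went from 64.7 ± 9.03 to 131 ± 9.03 CPM (SD, n = 3 per genotype), a 2.03-fold rise (log2 fold change 1.02 ± 0.11 SE, edgeR adjusted p = 0.0162). The 95% interval of the fold ran from 1.68 to 2.44. With 1 library left out the log2 fold change lay between 0.95 and 1.14. The call was lost without control replicate 2 (adjusted p = 0.0992) and without ND1_cKO replicate 1 (0.0544), and it was kept without ND1_cKO replicate 3 (0.0189). The betaglycan gene, Tgfbr3, went the other way, from 213 ± 17.7 to 150 ± 33.9 CPM. Every ND1_cKO library lay below every control for it, as for 14.1% of all genes. Its log2 fold change of -0.50 ± 0.16 did not pass (edgeR adjusted p = 0.143).

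Tgfb1, the ligand gene most often studied in fibrosis, was at 131, 109 and 107 CPM in controls and 115, 107 and 117 CPM in ND1_cKO. The genotypes overlapped. The log2 fold change was -0.03 ± 0.10 (adjusted p = 0.888), with a 95% interval from -0.26 to 0.20, that is, up to 1.15-fold upward. Its sign turned positive without control replicate 1 (0.07) and with library weights. Tgfb3, the third ligand gene, was at 24.8, 18.5 and 18.7 CPM in controls and 31.7, 19.7 and 102 CPM in ND1_cKO. The high value was that of ND1_cKO replicate 3 alone, while replicate 2 lay inside the control range. The log2 fold change of 1.31 ± 0.61 did not pass (adjusted p = 0.283), and without that library it was 0.31 (adjusted p = 0.516).

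The balance between ligand transcripts was also compared as the ratio of 2 genes' counts within a library, which does not depend on scaling between libraries. It is not corrected for transcript length, so its absolute value is not a ratio of molecules. The Tgfb2 to Tgfb1 ratio was 0.464, 0.538 and 0.701 in controls and 1.05, 1.25 and 1.19 in ND1_cKO. It was higher in every ND1_cKO library, by 2.07-fold in the mean (log2 difference 1.05). The exact two-sided permutation p was 0.1, the smallest that 3 against 3 allows, or 0.2 adjusted over the 4 ratios compared. The Tgfb2 to Tgfb3 ratio overlapped between genotypes (log2 difference 0.06, exact permutation p = 1, adjusted p = 1), and its sign depended on which library was left out.

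Neither gene for a latent TGF-beta binding protein passed the test, and both were highest in ND1_cKO replicate 3. Ltbp1, whose product binds the latent complex covalently, was at 74.5, 85.0 and 111 CPM in controls and 84.6, 93.2 and 137 CPM in ND1_cKO. The genotypes overlapped, and the log2 fold change was 0.22 ± 0.22 (adjusted p = 0.605). It turned to -0.02 without ND1_cKO replicate 3. Ltbp2 encodes a matrix protein of the same family which, despite its name, is known not to bind latent TGF-beta. It was at 124, 139 and 223 CPM in controls and 313, 202 and 908 CPM in ND1_cKO. ND1_cKO replicate 2 lay below control replicate 3, so the genotypes overlapped. Its log2 fold change of 1.55 ± 0.59 had the largest size among the 10 genes, yet its adjusted p was 0.209. Without ND1_cKO replicate 3 it was 0.66 (adjusted p = 0.325).

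All 3 integrin genes were higher in every ND1_cKO library than in any control, and Itgb8 passed the test. Itgb8, the beta subunit that pairs only with the product of Itgav, was at 14.2, 15.1 and 18.2 CPM in controls and 28.6, 34.6 and 28.0 CPM in ND1_cKO. The lowest ND1_cKO library was 1.53 times the highest control. Its mean went from 15.8 ± 2.14 to 30.4 ± 3.67 CPM (SD, n = 3), a 1.92-fold rise (log2 fold change 0.94 ± 0.14, edgeR adjusted p = 0.0302) with a 95% interval from 1.53 to 2.40. The log2 fold change lay between 0.82 and 1.05 with 1 library left out. The call was lost without control replicate 1 (adjusted p = 0.0622), 2 (0.145) or 3 (0.0760) and without ND1_cKO replicate 1 (0.0737).

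Itgb6, the epithelial beta subunit, was at 84.4, 87.2 and 116 CPM in controls and 119.6, 180.1 and 161 CPM in ND1_cKO. Here the gap was narrow, with the lowest ND1_cKO library at 1.03 times the highest control. Itgb6 differed by 0.68 ± 0.18 on the log2 scale (1.60-fold, adjusted p = 0.0982). Itgav, the alpha subunit that both beta subunits need, was at 92.7, 99.9 and 94.4 CPM in controls and 139, 123 and 205 CPM in ND1_cKO. The controls were tight and ND1_cKO replicate 3 was the highest library. The log2 fold change was 0.70 ± 0.18 (1.63-fold, adjusted p = 0.0911), and 0.45 without that library (adjusted p = 0.0506). DESeq2 called both Itgav (adjusted p = 0.00640) and Itgb6 (0.0105) higher, as 2 of 4 genes among the 10. DESeq2 called 11.0% of the genes it adjusted, 5.73% higher and 5.29% lower, so its calls are far more frequent than those of edgeR. The count ratio of Itgb8 to Itgb6 was 0.168, 0.174 and 0.157 in controls and 0.239, 0.192 and 0.174 in ND1_cKO. The ND1_cKO values were higher by 1.20-fold in the mean, with ND1_cKO replicate 3 just above control replicate 2 (exact permutation p = 0.1, adjusted p = 0.2).

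Other beta subunits that pair with the Itgav product did not pass; these were picked with their values known. Itgb1, the most widely shared beta subunit, had 924 ± 12.8 CPM in controls and 913 ± 75.9 in ND1_cKO (log2 fold change -0.02 ± 0.10). Itgb5 had 107 ± 4.70 and 118 ± 26.2 CPM (0.14 ± 0.15), and Itgb3 25.4 ± 4.73 and 19.2 ± 3.45 CPM (-0.41 ± 0.18, adjusted p = 0.243). A difference between these subunits and Itgb8 was not tested.

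Both receptor genes had small positive differences that did not pass. Tgfbr1, the kinase that phosphorylates SMAD2 and SMAD3, was at 179.6, 179.7 and 148 CPM in controls and 215, 211 and 179.5 CPM in ND1_cKO. The genotypes touched at about 180 CPM, where ND1_cKO replicate 3 fell just below control replicate 2. Tgfbr1 differed by 0.26 ± 0.11 on the log2 scale (1.19-fold, adjusted p = 0.247). Tgfbr2, the ligand-binding receptor, was at 722, 704 and 681 CPM in controls and 835, 778 and 890.0 CPM in ND1_cKO. Every ND1_cKO library lay above every control, by a narrow margin of 1.08 times. Tgfbr2 differed by 0.25 ± 0.09 on the log2 scale (1.19-fold, adjusted p = 0.183), and the 95% interval of the fold ran from 1.02 to 1.38. The count ratio of Tgfbr1 to Tgfbr2 overlapped between genotypes (log2 difference 0.01, exact permutation p = 0.9, adjusted p = 1).

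**Figure D2:**
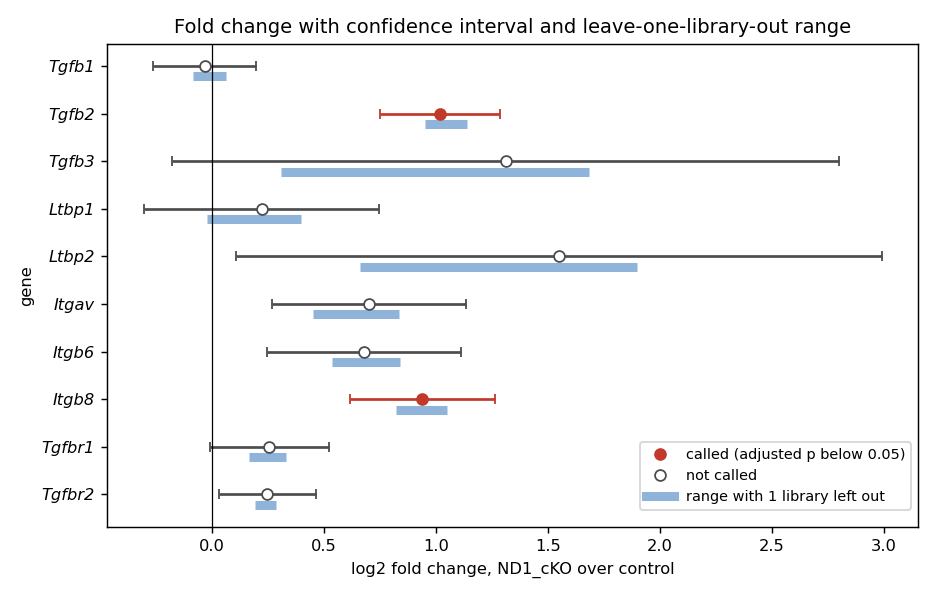
Log2 fold change of the 10 genes, ND1_cKO over control, with the 95% interval (thin bars) and the range obtained with 1 library left out in turn (thick bars). Tgfb2 and Itgb8 (filled) keep narrow ranges of 0.95 to 1.14 and 0.82 to 1.05, while Tgfb3 and Ltbp2 have the widest intervals. Tgfb1 (-0.083 to 0.066), Tgfbr1 (0.17 to 0.33) and Tgfbr2 (0.20 to 0.29), which were not called, have narrower ranges still.

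The 10 genes thus differed in how evenly the ND1_cKO libraries carried the difference. The coefficient of variation among the ND1_cKO libraries was 6.88% for Tgfb2 and 12.1% for Itgb8, against 87.2% for Tgfb3 and 80.1% for Ltbp2. A low value was not particular to the called genes: it was 5.04% for Tgfb1, 6.74% for Tgfbr2 and 9.65% for Tgfbr1. ND1_cKO replicate 3 had 3.98 times the mean of the other ND1_cKO libraries for Tgfb3, 3.53 times for Ltbp2, 1.56 times for Itgav and 1.54 times for Ltbp1. For the other 6 genes that ratio lay between 0.842 (Tgfbr1) and 1.10 (Tgfbr2). Relative to the control mean, Tgfb3 was at 1.54, 0.956 and 4.96 times in ND1_cKO replicates 1, 2 and 3 and Ltbp2 at 1.93, 1.25 and 5.60 times, so both put the libraries in the same order. Itgav (1.46, 1.29 and 2.14 times), Tgfbr2 (1.19, 1.11 and 1.27) and Tgfb1 (0.999, 0.923 and 1.01) shared that order. Tgfb2 was at 1.88, 2.05 and 2.15 times and Itgb8 at 1.80, 2.18 and 1.76 times, with no library far from the others.

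**Figure D3:**
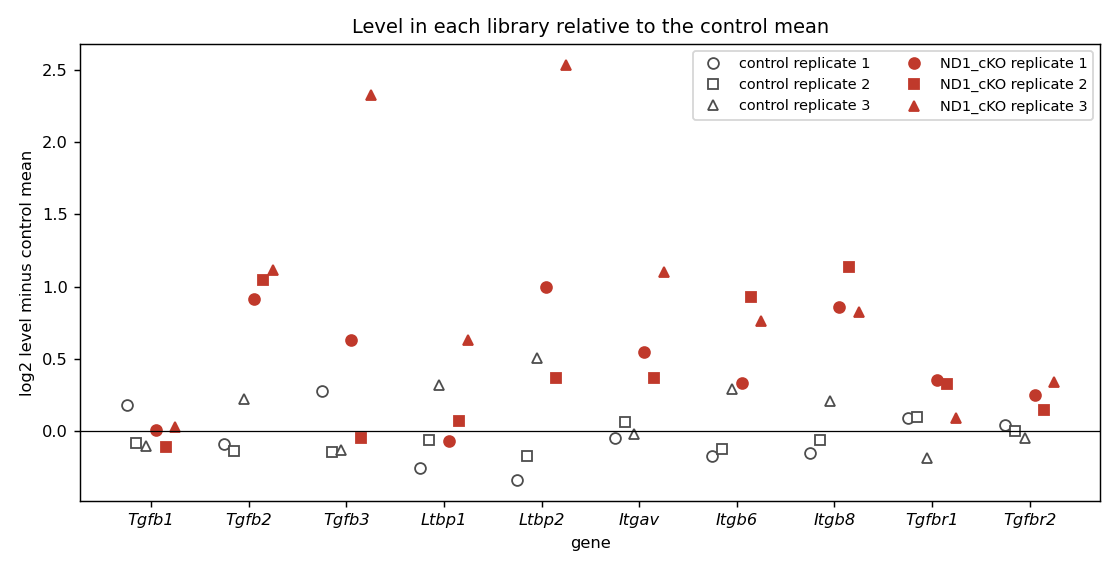
Log2 level of each gene minus its control mean in each of the 6 libraries (open symbols, control; filled symbols, ND1_cKO). For Tgfb3 and Ltbp2 the ND1_cKO replicate 3 triangle lies far above the other ND1_cKO symbols, while for Tgfb2 and Itgb8 the 3 ND1_cKO symbols lie together above all controls.

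The profiles of the 2 called genes were also the closest pair among the 10. Likeness was measured as the root-mean-square difference of log2 CPM, centred on the control mean, over the 6 libraries, and it was 0.13 between Tgfb2 and Itgb8. Among 13573 genes with a non-provisional symbol whose level, averaged over the 6 libraries, reached 1 CPM, those nearest to Tgfb2 were Ppfia3, which encodes a liprin (0.12), Itgb8 (0.13) and the immunoglobulin superfamily gene Igsf10 (0.14). Ppfia3 was below that level in each control (0.629 to 0.826 CPM) and met it only through the ND1_cKO libraries (1.23 to 1.71 CPM). Those nearest to Itgb8 were Mapk13, which encodes the p38 delta kinase (0.13), Tgfb2 (0.13) and the epithelial chloride transporter gene Slc26a9 (0.15). Mapk13 went from 34.2 ± 0.970 to 67.2 ± 9.69 CPM and Slc26a9 from 56.4 ± 5.98 to 108 ± 13.7 CPM, and both rose (edgeR adjusted p = 0.0162 and 0.0223). Genes within 0.2 of the profile numbered 16 for Tgfb2 and 14 for Itgb8. The measure includes the genotype difference itself, so it is a description of size and spread together.

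Outside the 10 genes, 58 further genes of the pathway were examined, of which 57 had enough counts to test. They were listed with earlier results of these data known. By edgeR 0 of the 57 rose and 2 fell, where 1.14% of all genes rose and 1.28% fell. An unadjusted p below 0.05 was reached by 24 of the 57 and by 21.4% of all genes. Both genes that fell belong to the 19 co-receptors, SMADs and inhibitors. Smad6, an inhibitory SMAD directed mainly at BMP signalling, went from 210.0 ± 6.75 to 115 ± 9.12 CPM (log2 fold change -0.87 ± 0.08, adjusted p = 0.0154). Acvrl1, an endothelial receptor of BMP9 and TGF-beta, went from 588 ± 75.6 to 371 ± 26.8 CPM (-0.66 ± 0.12, adjusted p = 0.0411). The Acvrl1 call was lost with a replicate block (adjusted p = 0.0559) and in 5 of 6 fits with a library left out (up to 0.145), and kept only without ND1_cKO replicate 3 (0.0452). The Smad6 call was lost without control replicate 2 (0.0964), control replicate 3 (0.0683) or ND1_cKO replicate 1 (0.0544). Eng, the endothelial co-receptor endoglin, was at -0.64 ± 0.13 with an adjusted p of 0.0518. Although not called in the main fit, it was called lower in 8 of 14 alternative fits, as many as Acvrl1. Endothelial markers were lower in the same libraries: 4 of 12 fell and 0 rose, and their summed level was 5955 to 6830 CPM in controls and 3698 to 4052 in ND1_cKO. Their part in these falls was not tested. The median of the 19 was -0.05.

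The 14 other activator and integrin partner genes had a median log2 fold change of 0.41, with 0 called by edgeR. An unadjusted p below 0.05 was reached by 5 of the 14 and by 21.4% of all genes. DESeq2 called 4 higher, where it called 5.73% of the genes it adjusted higher. Of the 14, those with the lowest p were the gelatinase gene Mmp2 (1.09 ± 0.27, adjusted p = 0.0864), the membrane-bound protease gene Mmp14 (1.13 ± 0.28, adjusted p = 0.0895) and the fibrillin gene Fbn1 (1.30 ± 0.35, adjusted p = 0.101), whose product anchors latent complexes. Without ND1_cKO replicate 3 the median was 0.09 and 3 of the 14 were called higher, Mmp14 (0.71, adjusted p = 0.0263) and Fbn1 (0.80, adjusted p = 0.0409) among them.

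Of the 24 transcriptional targets, 23 had positive log2 fold changes, with a median of 1.22, but edgeR called 0 of them. Over all genes tested 51.9% were positive. Some of the 23 differed little and overlapped between genotypes, among them Postn (0.005), Comp (0.08), Acta2 (0.12), Cdkn2b (0.20) and Tagln (0.26). An unadjusted p below 0.05 was reached by 14 of the 24 and by 21.4% of all genes. DESeq2 called 11 targets higher and 0 lower, against 5.73% and 5.29% of the genes it adjusted. The lowest p-values were those of Vcan, which encodes the proteoglycan versican (2.21 ± 0.43, adjusted p = 0.0551), the fibronectin gene Fn1 (1.85 ± 0.40, adjusted p = 0.0664) and the tenascin gene Tnc (1.11 ± 0.25, adjusted p = 0.0726). Mean log2 levels of the targets relative to controls were 0.97, 0.35 and 1.94 in ND1_cKO replicates 1, 2 and 3. Without ND1_cKO replicate 3 the median of the targets was 0.70 and 1 of the 24 was called higher, Vcan (1.70, adjusted p = 0.0449). Without ND1_cKO replicate 2 the median was 1.61 and 6 were called higher.

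**Figure D4:**
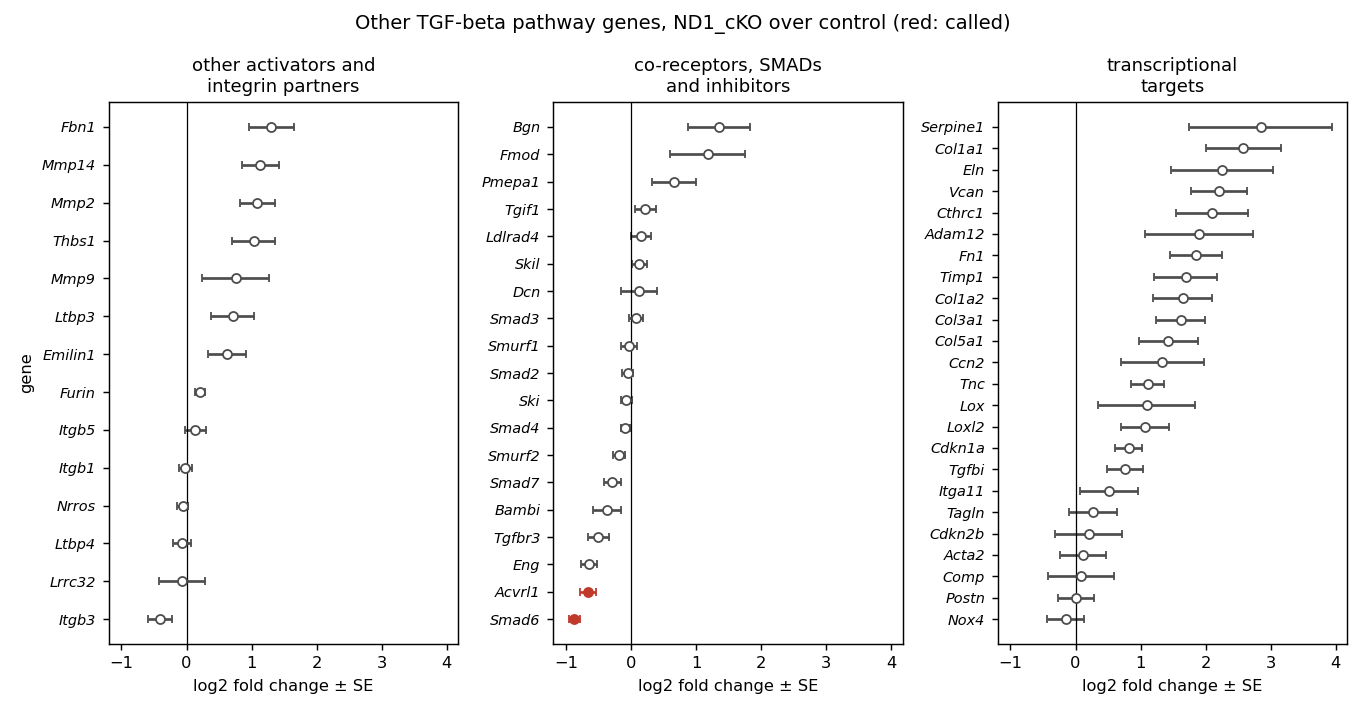
Log2 fold change ± SE, ND1_cKO over control, of the 57 tested pathway genes outside the 10, in 3 lists. Smad6 and Acvrl1 (filled) are the genes called, both lower. Of the 24 targets 23 lie above 0, some of them, such as Postn and Acta2, close to it.

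Markers of lung cell types were read in the same libraries, and their part in the differences of the 10 genes was not tested. For comparison, edgeR called 1.14% of all genes higher and 1.28% lower. Of 9 markers of the alveolar transitional state, 5 rose and 0 fell, and their summed level was 997 to 1185 CPM in controls and 1752 to 1802 in ND1_cKO. Their mean log2 level relative to controls was 1.01, 0.87 and 1.43 in ND1_cKO replicates 1, 2 and 3. Markers of monocyte-derived macrophages summed to 668 to 1402 and 1926 to 2130 CPM (1 of 7 rose). The macrophage gene that rose was Arg1 (means of 14.7 and 39.9 CPM, edgeR adjusted p = 0.0435). Of the 7, 5 had positive log2 fold changes. Among these, Spp1 (33.1 and 451 CPM, adjusted p = 0.0526) and Gpnmb (587 and 1179, adjusted p = 0.0941) did not pass. The 2 negative ones were Ccr2 (46.6 and 39.1) and Lpl (318 and 237). Platelet markers summed to 18.5 to 24.0 and 34.4 to 43.3 CPM (1 of 3 tested rose). The platelet gene that rose was Pf4, at 11.5 to 14.4 and 29.1 to 39.3 CPM. The other tested platelet genes did not pass. Itga2b was at 6.47 to 9.02 and 3.65 to 4.91 CPM and Gp9 at 0.351 to 0.551 and 0.136 to 0.365 CPM, and the median log2 fold change of the 3 was -0.69. Activated fibroblast markers, 5 of which are also among the targets, summed to 1167 to 1900 and 2150 to 6718 CPM. Their mean log2 level relative to controls was 1.24, 0.45 and 2.22 in ND1_cKO replicates 1, 2 and 3, and their median log2 fold change went from 1.90 to 1.15 without replicate 3. Mesothelial markers summed to 64.1 to 215 and 95.0 to 560.2 CPM, with means of 0.090, -0.035 and 2.69 in the same libraries. The controls also varied, with means of -0.72, -0.49 and 1.21 in control replicates 1, 2 and 3. The median of the mesothelial markers went from 0.85 to -0.50 without ND1_cKO replicate 3 and to 1.71 without control replicate 3. Lymphocyte markers summed to 213 to 246 and 96.0 to 168 CPM, and alveolar type 1 markers to 5424 to 6881 and 2950 to 5362 CPM, both lower in ND1_cKO. Among 10 alveolar type 2 markers 1 rose, among 6 tested basal markers 1 rose, and among 8 alveolar fibroblast markers 1 fell. Type 2 markers summed to 29345 to 33832 and 22080 to 35216 CPM, and they were split in direction. Of the 10, the genotypes were separated upward in 3 and downward in 3, against 14.1% of all genes each way. An unadjusted p below 0.05 was reached by 6 of them and by 21.4% of all genes. DESeq2 called 3 higher and 2 lower, against 5.73% and 5.29% of the genes it adjusted.

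By edgeR 0 markers were called among those of activated fibroblasts (4 at an unadjusted p below 0.05, and 4 higher by DESeq2), mesothelium (0 and 0), lymphocytes (10, and 8 lower) and alveolar type 1 cells (4, and 4 lower). The same count of 0 held for airway club and ciliated cells (2 and 0), smooth muscle (1, and 1 lower), alveolar macrophages (1, and 1 higher) and neutrophils (0 and 0). Among all genes 21.4% had an unadjusted p below 0.05. DESeq2 called 5.73% of the genes it adjusted higher and 5.29% lower. The count table holds no gene at 0 in every library, so no marker in it could be. The listed platelet marker Gp1bb was absent from it.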

How the data were processed

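Whole-lung RNA of 6 rats (3 control, 3 ND1_cKO) was analysed from the deposited table of whole-number read counts per gene symbol. Each column was assigned by the column name in its sample's description, and 0 columns were left over. Per the submitters' processing notes the authors used fastp, HISAT2, HTSeq, DESeq2 and R 4.3.3, without saying which did what. The sources used here do not state build, annotation or strand setting. Without strand, reads of overlapping genes cannot be told apart. In RefSeq GRCr8, Tgfb2, Ltbp1, Itgav and Itgb6 overlap annotated noncoding genes or pseudogenes, so their values carry that uncertainty. All libraries came from separate animals per the series description.

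Genes kept by filterByExpr (16548) were tested with edgeR 4.0.16 in R 4.3.3 (TMM, robust quasi-likelihood F test, two-sided, genotype as the only factor, Benjamini-Hochberg adjustment over all genes). This was the main test for counts; DESeq2 1.42.0, which the series description names, was an alternative. Standard errors were derived from the fold change and its F statistic. Alternatives were limma-voom and library weights (limma 3.58.1), DESeq2 size factors, total counts only, no filter, a minimum of 1 CPM in 3 libraries, a replicate block and each library left out. Ratios used counts plus 0.5 and exact permutation. The fit was tested on simulated counts. No 2 libraries agreed within sampling noise (chi-square per degree of freedom at least 23.7). The 10 genes, the pathway list and the 15 marker lists were chosen with earlier results of these data known. The genes named by rule are the 10, each called gene and the 3 lowest p-values of each pathway list, and the 3 nearest profiles of each called gene. ND1 and Sftpc were named as the targeted gene and the Cre driver gene. Tgfbr3, Itgb1, Itgb3, Itgb5, the targets that differed little and the single macrophage and platelet markers were added with their values known. Intervals of counts cover counting error only.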

Additional observations from a re-analysis of the deposited data

How the results depend on the processing

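Tgfb2 was called in 12 of 14 alternatives, Itgb8 in 10, Itgav and Itgb6 in 1 each (DESeq2), and the other 6 of the 10 genes in 0. The 2 calls among the 10 genes became 4 with DESeq2 and ranged from 0 (without control replicate 2 or ND1_cKO replicate 1) to 2 with a library left out. The 400 calls over all genes became 1879 with DESeq2, 964 with library weights and 262 with a replicate block, and ranged from 0 (without control replicate 2) to 495 (without ND1_cKO replicate 3). The 2 pathway calls (0 higher, 2 lower) became 19 with DESeq2 (15 higher, 4 lower), 8 with library weights (5 higher, 3 lower) and 5 with a replicate block (4 higher, 1 lower), and ranged from 0 (without control replicate 2 or 3 or ND1_cKO replicate 1) to 8 (without ND1_cKO replicate 2, 7 higher and 1 lower, or 3, 4 higher and 4 lower). Fits without a library have fewer samples; the causes of the other shifts were not tested.

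The median log2 fold change of the 10 genes ranged from 0.39 (without ND1_cKO replicate 3) to 0.79 with a library left out. The sign of Tgfb1 turned with library weights (8.0e-05) and without control replicate 1 (0.066), and that of Ltbp1 without ND1_cKO replicate 3 (-0.023). With a library left out Tgfb1 ranged from -0.083 to 0.066 and Ltbp1 from -0.023 to 0.40. With a library left out the log2 difference of the Tgfb2 to Tgfb1 ratio ranged from 0.92 to 1.21, of Tgfb2 to Tgfb3 from -0.46 to 0.69, of Itgb8 to Itgb6 from 0.14 to 0.37, and of Tgfbr1 to Tgfbr2 from -0.074 to 0.14. Among the reversals were -0.13 and -0.06 for Tgfb2 to Tgfb3 (without control replicate 1, without ND1_cKO replicate 1) and -0.06 and -0.03 for Tgfbr1 to Tgfbr2 (without control replicate 3, without ND1_cKO replicate 1).

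The sample titles give same-numbered libraries only a number in common, and whether they shared anything else is not stated there. Their deviations correlated at 0.17, 0.02 and 0.13, each the highest for its library. In the fit with that replicate block, 2 of the 10 genes were called, and Itgb8 was near the threshold (adjusted p = 0.0499). For each of the 10 genes the counting error of its lowest count was below its spread between libraries in either genotype.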
